A study of Mus musculus with 6 samples.

Results

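The cornified envelope genes of the epidermal differentiation complex were examined in mouse prostate cells with and without the retinoblastoma gene Rb. Members were the genes of this chromosome 3 cluster whose symbol starts with Sprr or Lce, together with Ivl, Lor, Flg, Flg2, Rptn, Tchh, Tchhl1, Kprp and Crct1. The S100 genes of the same cluster were left out. RefSeq lists 47 such genes. Of the 20832 genes that could be named on the array 40 were members, measured by 46 of its 39429 probes. Sprr2a1, Sprr2a3, Sprr2c-ps, Lce6a, Lce1j, Lce3d and Flg had none under their own accession.

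Each group was 3 cultures of primary prostate cells from mice that lacked p53, grown without serum in Prostacult medium with bFGF and bEGF. Cells labelled p53-/- Rbf/f carried floxed Rb, received an adenovirus with lacZ and kept Rb, and are called Rb intact. Cells labelled p53-/- Rb∆f/∆f received an adenovirus with Cre, which deleted Rb, and are called Rb deleted. Total RNA was taken 48 hours after infection, and age and strain background are not given in the sources used here. The series compared the groups to develop gene sets that follow Rb loss without p53. All Rb deleted cultures received Cre and all Rb intact cultures lacZ, so the effects of the virus and of Rb loss cannot be told apart. The design text speaks of independent experiments, but nothing says that the cultures came from separate animals, and p-values measure the spread between these samples.

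The cornified envelope is a sheath of cross-linked protein that replaces the plasma membrane of squamous epithelial cells as they die and harden. Involucrin is laid down early as a scaffold, loricrin and the small proline-rich (SPRR) proteins are joined to it by transglutaminases, and the late cornified envelope (LCE) proteins are added last. The genes lie side by side, are often duplicated, and are switched on together as keratinocytes differentiate. The healthy prostate is a glandular tissue with no cornified layer, although its basal cells share regulators with the basal layer of squamous epithelia.

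Signals are log2 processed intensities minus the array's 75th percentile, and levels of different probes are not compared with each other. The share of probes well above background ranged from 58.7% to 63.3% over the arrays, without saturated spots. All 3 Rb intact arrays shared a slide with Rb deleted 1, here the first slide, and Rb deleted 2 and 3 were on another. Rb1, the targeted gene, stood at -1.15, -1.14 and -1.17 in Rb intact and -3.13, -3.12 and -3.07 in Rb deleted, which was 25.7% of the intact signal (limma adjusted p = 0.000212). Whether its probe lies in the floxed region was not known. Among luminal prostate markers Hoxb13, Msmb and Spink1 were not well above background on any array, and neither were 7 of 8 secretory and seminal vesicle genes. Of the 14 luminal markers, 8 were well above background on all 6 arrays. Among 7 epidermal suprabasal markers Krt1, Krtdap, Dsc1 and Calml3 were at background on every array. Krt10 and Krt2 of the same list were well above background on all 6 arrays.

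Envelope genes that could be measured in both groups were mostly lower after Rb deletion, and no envelope probe was called higher. Probes well above background on all 6 arrays can differ in either direction, and 17 envelope probes of 15 genes were in this class. Of these 13, from 12 genes, fell (limma, Benjamini-Hochberg adjusted p under 0.05 over 23045 probes) and none rose, or 76.5% against 8.57% of all 22164 such probes called lower and 6.7% called higher. Without Rb deleted 2 the count was 8 of 17 (3.67% of all such probes), with slide as a block it was also 8, and within the slide that holds both groups it was 2. The median difference of the 17, Rb deleted minus Rb intact, was -0.88, against 0.01 for all such probes. The groups did not overlap for the same 13 probes, against 20.3% of all such probes that were lower without overlap. By size, 6 of the 205 such probes on the whole array that were lower by at least 1 on the log2 scale were envelope probes. The exact two-sided permutation test gave 0.1 for each of the 13, the smallest p that 3 against 3 arrays can reach. Whether probes of similar paralogs read each other's RNA was not tested, so the 12 genes may not be independent. In cell mixtures such as these, fewer cells expressing a gene and less RNA per cell cannot be told apart.

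A further 8 envelope probes were above background on all Rb intact arrays but not on all Rb deleted arrays. They entered the test only through the group in which they were high, so they had to be lower in the other, and their calls are given gene by gene, with no count as support. The remaining 21 probes were not tested. Of these 15 were not well above background on any array, and 6 were so on some arrays only. In all, 25 probes of 22 genes were tested, and 18 genes had no tested probe. At an unadjusted p under 0.05 limma still gave 0 envelope probes higher. Over all 23045 probes tested, 8.85% were called lower and 6.83% higher.

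**Figure D1:**
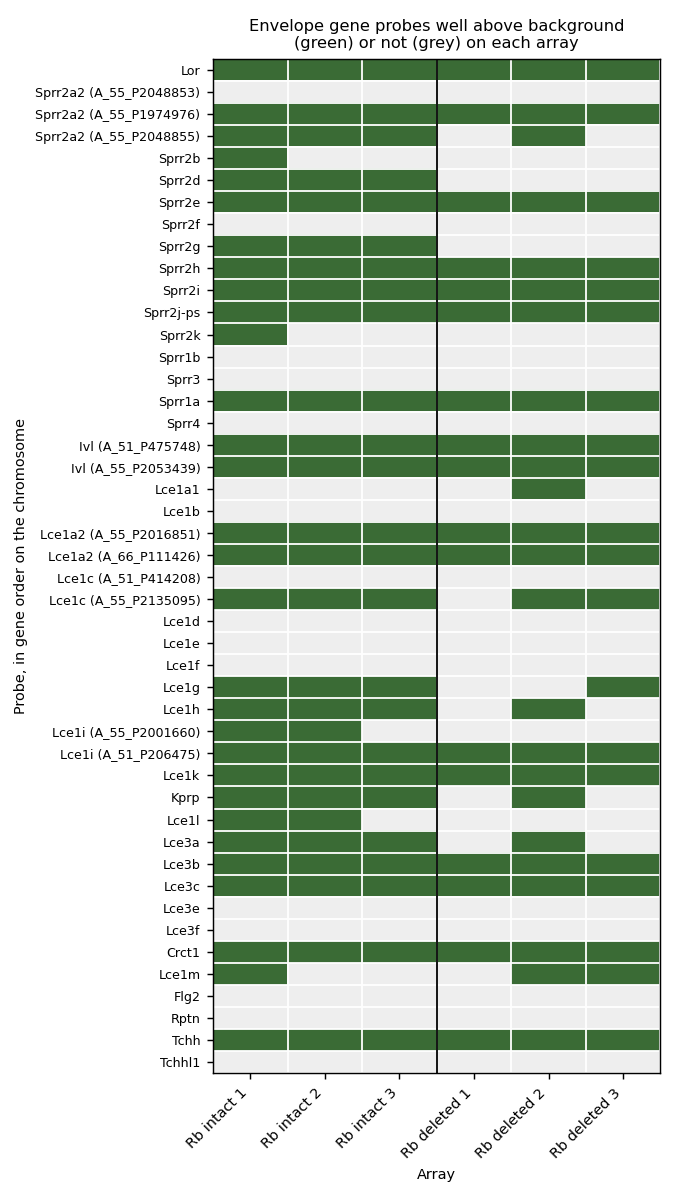
Each row is an envelope gene probe in gene order on the chromosome and each column an array; green marks a probe well above background and grey one that is not. Probes above background number 30, 27 and 25 on Rb intact arrays 1 to 3 and 17, 24 and 20 on Rb deleted arrays 1 to 3, and the grey bands fall mainly on Sprr3, Sprr4, part of the Lce1 cluster and the filaggrin-like genes.

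The map of detected probes shows detected and undetected members within the Sprr2, Lce1 and Lce3 families. The Sprr2 family, small proline-rich cross-bridging proteins, had 8 of 12 probes tested, Lce1 had 7 of 16 and Lce3 had 3 of 5. Of the genes for S100-fused proteins of the filaggrin type, Flg2, Rptn and Tchhl1 were at background on every array and only the trichohyalin gene Tchh was measured. Sprr1b, Sprr2f, Sprr3, Sprr4, Lce1b, Lce1d, Lce1e, Lce1f, Lce3e and Lce3f were also at background on every array, which makes 13 genes without detected signal. Lce1b was printed as 10 spots, and 1 of them was above background on Rb intact 2 and none on the other arrays. Of the probes detected on some arrays only, Sprr2b and Sprr2k were above background on Rb intact 1 alone, Lce1l on Rb intact 1 and 2, and Lce1m on Rb intact 1 and Rb deleted 2 and 3. Lce1a1 was above background on Rb deleted 2 alone, where it stood at -4.32 against -8.65 to -6.45 on the other arrays. Counted over all 46 probes, 12 were detected on more Rb intact than Rb deleted arrays and 2 on more Rb deleted arrays. Rb deleted 1 had both the fewest detected envelope probes, 17, and the lowest share of all probes above background, 58.7%; Rb deleted 2 had 24 and the highest share, 63.3%.

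Promoters are printed for the tested genes with the largest fitted differences, so that their starts can be set side by side. These are Sprr2g, Sprr2e, Ivl, Lce1g, Lce1i and Lce1h, and RefSeq sequence was at hand for the last 5. The fitted values served only to choose them, since Sprr2g, Lce1g and Lce1h were not above background on all Rb deleted arrays and Lce1h was not called. Each runs 5′ to 3′ on the gene's strand from 250 bases before the start to 50 after it, in build GRCm38.p6. Capitals mark TGANTCA, the AP-1 motif, and TATAAA, the TATA box. The positions are chr3:92351893-92352192 (+ strand) for Sprr2e, chr3:92573686-92573985 (- strand) for Ivl, chr3:92752289-92752588 (- strand) for Lce1g, chr3:92778850-92779149 (- strand) for Lce1i and chr3:92765016-92765315 (- strand) for Lce1h.
Sprr2e: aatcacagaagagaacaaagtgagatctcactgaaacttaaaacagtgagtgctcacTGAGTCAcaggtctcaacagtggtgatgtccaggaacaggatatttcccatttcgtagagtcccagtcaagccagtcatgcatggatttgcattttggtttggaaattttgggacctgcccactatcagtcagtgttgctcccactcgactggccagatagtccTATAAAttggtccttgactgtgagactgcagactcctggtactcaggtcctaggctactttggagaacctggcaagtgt
Ivl: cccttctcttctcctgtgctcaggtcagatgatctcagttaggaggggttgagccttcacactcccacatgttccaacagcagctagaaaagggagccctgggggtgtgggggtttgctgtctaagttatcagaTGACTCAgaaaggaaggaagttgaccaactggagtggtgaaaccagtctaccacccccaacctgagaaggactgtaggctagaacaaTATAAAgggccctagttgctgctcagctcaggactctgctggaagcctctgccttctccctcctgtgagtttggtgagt
Lce1g: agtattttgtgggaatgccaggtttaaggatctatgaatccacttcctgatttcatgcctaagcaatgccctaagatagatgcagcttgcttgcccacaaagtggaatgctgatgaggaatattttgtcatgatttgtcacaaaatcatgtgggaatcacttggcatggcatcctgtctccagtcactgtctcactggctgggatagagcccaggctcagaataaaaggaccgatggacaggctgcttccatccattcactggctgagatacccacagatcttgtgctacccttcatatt
Lce1i: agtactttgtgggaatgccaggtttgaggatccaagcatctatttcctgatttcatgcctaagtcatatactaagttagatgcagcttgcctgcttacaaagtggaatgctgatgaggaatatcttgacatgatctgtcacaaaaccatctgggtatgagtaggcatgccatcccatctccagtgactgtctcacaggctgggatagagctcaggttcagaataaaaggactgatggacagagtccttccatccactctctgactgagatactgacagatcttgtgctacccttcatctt
Lce1h: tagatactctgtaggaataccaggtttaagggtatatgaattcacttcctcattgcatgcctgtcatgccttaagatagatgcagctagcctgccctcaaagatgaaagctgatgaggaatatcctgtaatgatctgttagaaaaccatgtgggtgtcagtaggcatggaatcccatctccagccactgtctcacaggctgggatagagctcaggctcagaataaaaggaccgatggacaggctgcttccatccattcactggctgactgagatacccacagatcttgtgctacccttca

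Sprr2e and Ivl shared an arrangement of exact motif strings that were absent from the 3 Lce1 promoters. Each had a TATAAA whose first base lay 29 bases before the start, and an AP-1 motif upstream of it, TGAGTCA at -193 in Sprr2e and TGACTCA at -116 in Ivl. The Lce1 windows held neither exact string. All 3 hold the stretch aataaaagga, and looser forms of the TATA box were not searched, so a TATA-like element there was not tested. The Lce1 windows resembled each other, with 86.0% identity over 300 aligned bases between Lce1g and Lce1i. Between Lce1g and Lce1h it was 88.1% over 294. Both strands were searched in all 41 envelope promoters of 300 bases in the table. TGANTCA was present in 15 of them (36.6%), against 7.81% of all 32851 promoters, and TATAAA in 18 (43.9%), against 13.6%. The Klf motif CACCC was present in 20 (48.8%), against 57.5%. Neither E2F motif searched (TTTGGCGC, TTTCCCGC) nor the NF-kB motif was found in an envelope promoter, where 1.56% and 1.63% of all promoters held them. Of 15 genes called lower that had a promoter entry, 7 held the AP-1 motif and 7 the TATA box. Several of these promoters are near copies of each other, so the counts are not independent, and a match is a description and not a binding site.

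Involucrin (Ivl), the early scaffold protein, fell on both of its probes. Probe A_51_P475748 stood at -2.03, -2.14 and -2.02 on Rb intact arrays 1 to 3 and at -4.24, -4.23 and -4.32 on Rb deleted arrays 1 to 3. Every Rb deleted array was far below every Rb intact array. The difference was -2.20 ± 0.06 (SE), 4.59-fold lower, with a limma adjusted p of 0.000212. The other probe, A_55_P2053439, stood at -2.13, -2.90 and -2.65 in Rb intact and at -4.88, -5.08 and -4.99 in Rb deleted, a wider spread in Rb intact without overlap. It fell by 2.43 ± 0.20 (5.37-fold, limma adjusted p = 0.00125). Ordered from the most lowered of the 22164 probes measured on all arrays, the 2 Ivl probes ranked 8 and 4.

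Loricrin (Lor), the main structural protein of the mature epidermal envelope, stood at -2.56, -2.38 and -2.33 in Rb intact and at -3.52, -3.31 and -3.29 in Rb deleted. The groups were separate, and Lor was 1.93-fold lower in Rb deleted, a fall of 0.95 ± 0.09 (limma adjusted p = 0.00258). On the chromosome Lor and Ivl flank the SPRR genes.

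The Sprr2 family is the largest group of small proline-rich precursor genes, and RefSeq lists some of its members as pseudogenes. Differences of its probes measured on all arrays ran from near 0 to the largest fall of any such envelope probe. Sprr2e stood at -0.89, -0.76 and -0.55 in Rb intact and at -3.70, -3.34 and -3.22 in Rb deleted. It fell by 2.69 ± 0.15 (6.44-fold, limma adjusted p = 0.000576), the largest fall of an envelope probe measured on all arrays, where it ranked 3 of 22164. Sprr2h, in contrast, stood at 3.45, 3.51 and 3.66 in Rb intact and at 2.96, 3.08 and 3.13 in Rb deleted. It fell by 0.48 ± 0.08 (1.40-fold, limma adjusted p = 0.0134), a smaller change without overlap, and its call was lost without Rb deleted 2 (adjusted p = 0.0616). Sprr2i stood at -4.25, -3.97 and -3.80 in Rb intact and at -4.94, -4.73 and -5.01 in Rb deleted, and fell by 0.88 ± 0.14 (1.84-fold, limma adjusted p = 0.0101). The pseudogene Sprr2j-ps stood at -3.76, -4.06 and -3.88 and at -5.22, -4.79 and -4.56 in the same order of groups. It fell by 0.95 ± 0.18 (1.94-fold, limma adjusted p = 0.0187). Its groups were separate too, and the call was lost without Rb intact 3 (adjusted p = 0.0624) or Rb deleted 2 (adjusted p = 0.0676).

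Sprr2g and Sprr2d had no Rb deleted array well above background, so their differences have only a bound. Sprr2g, listed by RefSeq as a transcribed pseudogene, stood at -3.75, -3.99 and -3.53 in Rb intact and at -7.88, -6.75 and -6.46 in Rb deleted. For the bound, each Rb deleted array was set to the lowest signal of any probe above background there, or to the probe's own where that was higher. With the main background subtraction Sprr2g was then at least 5.75-fold lower in Rb deleted, or 2.52 on the log2 scale (limma adjusted p = 0.00364). The fitted difference was -3.27, or -1.72 under the normexp background model. That is a smaller fall than the bound, so the bound does not hold under normexp. Sprr2d stood at -5.81, -5.75 and -5.51 in Rb intact and at -7.57, -6.91 and -7.17 in Rb deleted. With the main background subtraction it was at least 1.5-fold lower (limma adjusted p = 0.00413). Its fitted difference was -1.52, or -0.57 under normexp.

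The 3 probes assigned to Sprr2a2, another member of this family, gave different answers although all carry 1 accession. A_55_P1974976 stood at 6.12, 6.10 and 6.22 in Rb intact and at 6.17, 6.07 and 6.01 in Rb deleted. These groups overlapped, and the difference was -0.06 ± 0.07, with a 95% interval from -0.23 to 0.11 (limma adjusted p = 0.566, exact permutation p = 0.4). A_55_P2048855 stood at -3.76, -3.81 and -3.72 in Rb intact and at -5.97, -6.03 and -5.86 in Rb deleted, where it was above background on Rb deleted 2 alone. It fell by 2.19 ± 0.07 (limma adjusted p = 0.000212), or by 1.28 under the normexp background model (adjusted p = 0.000178), where the first probe differed by 0.0088 (adjusted p = 0.937). A_55_P2048853 was not above background on any array. Sprr2a1 and Sprr2a3 had no probe of their own. The promoter entries of Sprr2a1 and Sprr2a2 were identical over all 300 bases, and that of Sprr2a3 was identical to both over the 272 aligned bases. Probe sequences were not used here, so which of these near-identical genes each probe reads was not tested.

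**Figure D2:**
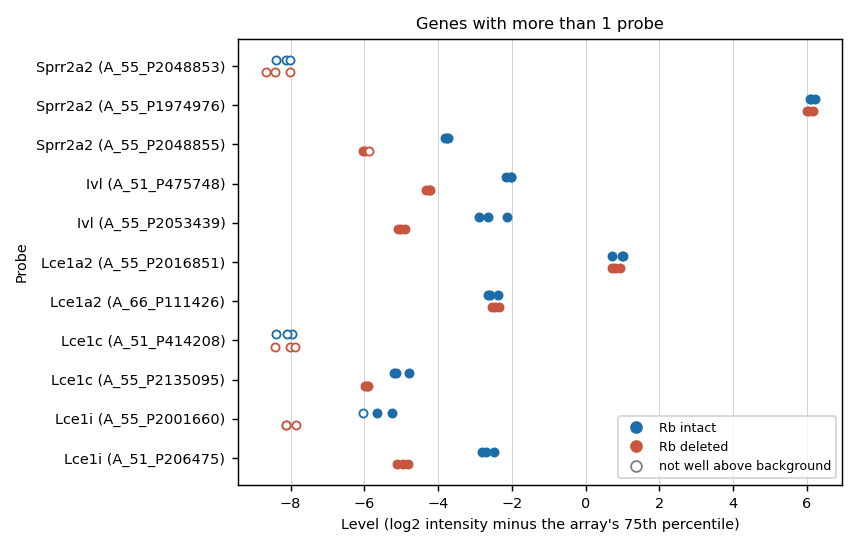
Level of every probe of the 5 envelope genes that have more than 1, with points for the 3 Rb intact and 3 Rb deleted arrays; open points are not well above background. Both Ivl probes separate the groups, while Sprr2a2 probe A_55_P1974976 does not and A_55_P2048855 does.

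Outside Sprr2, Sprr1a was the only SPRR gene measured. It encodes a cross-bridging precursor that squamous cells also make under stress, and stood at 0.21, 0.19 and 0.15 in Rb intact and -0.81, -0.80 and -0.90 in Rb deleted. Replicates lay close together and the groups were far apart. Sprr1a fell by 1.02 ± 0.06 (2.03-fold, limma adjusted p = 0.00058). Crct1, a cysteine-rich gene at the far end of the LCE cluster, gave a like picture, with 1.39, 1.20 and 1.27 in Rb intact and 0.22, 0.27 and 0.15 in Rb deleted. It fell by 1.07 ± 0.07 (2.11-fold, limma adjusted p = 0.000728).

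The Lce1 genes, late envelope precursors that are close copies of each other, did not move as a block. Lce1i probe A_51_P206475 stood at -2.71, -2.49 and -2.81 in Rb intact and at -4.96, -5.11 and -4.82 in Rb deleted. It fell by 2.29 ± 0.11 (4.90-fold, limma adjusted p = 0.000462) and ranked 6 of 22164 among the most lowered probes. The other Lce1i probe, A_55_P2001660, was above background on Rb intact 1 and 2 alone and was not tested. It stood at -5.25, -5.66 and -6.03 in Rb intact and at -7.85, -8.11 and -8.12 in Rb deleted, which lay in the same direction without overlap. Lce1a2, in contrast, overlapped between groups on both probes. A_55_P2016851 stood at 0.72, 0.99 and 1.01 in Rb intact and at 0.94, 0.79 and 0.73 in Rb deleted, a difference of -0.09 ± 0.10 with an interval from -0.34 to 0.16 (limma adjusted p = 0.591). With array weights this probe was called lower, at -0.20 (adjusted p = 0.0428). A_66_P111426 stood at -2.64, -2.60 and -2.38 and at -2.35, -2.47 and -2.54, a difference of 0.09 ± 0.09 with an interval from -0.14 to 0.31 (limma adjusted p = 0.547). Both Lce1a2 intervals lay outside the interval of the Lce1i difference, -2.57 to -2.02. Lce1k also overlapped, with -5.47, -5.85 and -5.20 in Rb intact and -5.35, -5.21 and -4.48 in Rb deleted. Its difference was 0.49 ± 0.27, with an interval from -0.17 to 1.15 (limma adjusted p = 0.264).

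The other Lce1 genes tested were above background on all Rb intact arrays and on some Rb deleted arrays only. Lce1g stood at -3.44, -3.50 and -3.53 in Rb intact and at -5.72, -6.39 and -5.63 in Rb deleted, with Rb deleted 3 alone above background. Lce1g fell by 2.42 ± 0.20 (limma adjusted p = 0.00134), or by 1.44 under the normexp background model. Lce1c probe A_55_P2135095, above background on Rb deleted 2 and 3, stood at -4.79, -5.15 and -5.19 and at -5.89, -5.92 and -5.98. Its difference was -0.88 ± 0.12 (limma adjusted p = 0.00609), or -0.46 under the normexp background model. The other Lce1c probe was at background on every array. Lce1h, above background on Rb deleted 2 alone, stood at -4.24, -4.26 and -4.99 in Rb intact and at -6.96, -5.39 and -7.93 in Rb deleted. The groups did not overlap, but the Rb deleted arrays were spread widely, and the difference of -2.27 ± 0.63 was not past the threshold (limma adjusted p = 0.0601). Without Rb deleted 2 no Rb deleted array had Lce1h above background, so the fitted -2.95 rests on background signal and gives no size. Kprp, a keratinocyte proline-rich protein gene that lies among the Lce1 genes, was alike, at -4.18, -5.07 and -4.87 in Rb intact and -6.26, -5.25 and -6.89 in Rb deleted. Its difference was -1.43 ± 0.44 (limma adjusted p = 0.0806). Rb deleted 2 was the only Rb deleted array on which Kprp was above background, so the fit without it (-1.87) gives no size either.

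The Lce3 genes are induced in injured or inflamed epidermis, and 3 of their probes were tested. Lce3b and Lce3c, measured on all arrays, fell by small amounts, and Lce3a entered the test only through Rb intact. Lce3b stood at -4.78, -4.79 and -4.88 in Rb intact and at -5.10, -5.17 and -5.14 in Rb deleted, and fell by 0.32 ± 0.06 (1.25-fold, limma adjusted p = 0.0174). Lce3c stood at -4.12, -4.37 and -4.20 in Rb intact and at -4.64, -4.81 and -4.52 in Rb deleted, and fell by 0.43 ± 0.10 (1.34-fold, limma adjusted p = 0.0413). Both pairs of groups were separate by a narrow gap. The Lce3c call was lost when any 1 of the 6 arrays was left out (adjusted p from 0.0531 to 0.135). Lce3b lost its call without Rb intact 2 (0.0654), Rb deleted 2 (0.0924) or Rb deleted 3 (0.0803). Lce3a stood at -5.20, -4.72 and -4.58 in Rb intact and at -6.38, -5.60 and -6.94 in Rb deleted, where Rb deleted 2 alone was above background. It fell by 1.47 ± 0.35 (limma adjusted p = 0.0383), and the call was lost without Rb intact 2 (0.102), Rb intact 3 (0.108), Rb deleted 1 (0.101) or Rb deleted 3 (0.0882).

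Tchh, which encodes trichohyalin, a protein best known from the inner root sheath of hair, stood at 0.17, -0.23 and -0.25 in Rb intact and at -0.80, -0.91 and -0.90 in Rb deleted. It fell by 0.76 ± 0.12 (1.70-fold, limma adjusted p = 0.0119). Its groups were separate, and the call was lost without Rb deleted 2 (adjusted p = 0.058) or Rb deleted 3 (adjusted p = 0.0549).

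**Figure D3:**
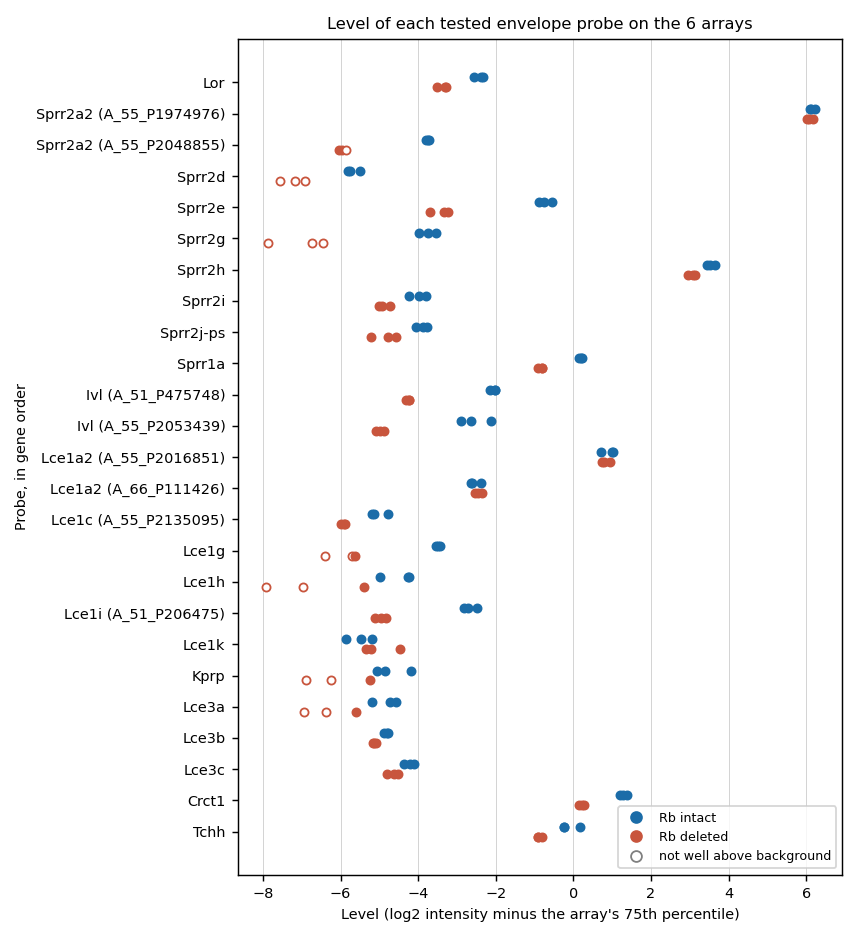
Level of each tested envelope probe on every array, in gene order, as log2 intensity minus the array's 75th percentile. Points show the 3 Rb intact and 3 Rb deleted arrays, open where not well above background; the groups overlap for 4 probes, those of Lce1a2 and Lce1k and Sprr2a2 probe A_55_P1974976.

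The probes measured on all arrays were also read along the chromosome. From Lor to Ivl, which holds the SPRR genes, 8 of 9 such probes were called lower, with a median difference of -0.95. From Lce6a to Lce1l, 1 of 4 was called lower, that of Lce1i, with a median of 0.00019. From Lce3a to Tchhl1, all 4 were called lower, with a median of -0.60. Over the whole array 8.57% of such probes were called lower. With slide as a block the calls of Sprr2h and Sprr2i in the first stretch and of Lce3b, Lce3c and Tchh in the last were lost. These stretches were drawn after the values were seen, and the difference between them was not tested. Of 24 genes between the outermost members that are not members, 7 had a probe, 3 had a tested probe, and none of those 3 was called by limma at the adjusted threshold. Prr9, a proline-rich protein gene, differed by -0.16 ± 0.14 (limma adjusted p = 0.461), and Lelp1 by -0.03 ± 0.16 (limma adjusted p = 0.908). Tdpoz8 differed by -0.13 ± 0.13 (0.506) on A_55_P2039761 and by 0.23 ± 0.21 (0.496) on A_55_P2176908. The envelope-like genes Crnn and Hrnr were not above background on all arrays of either group.

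**Figure D4:**
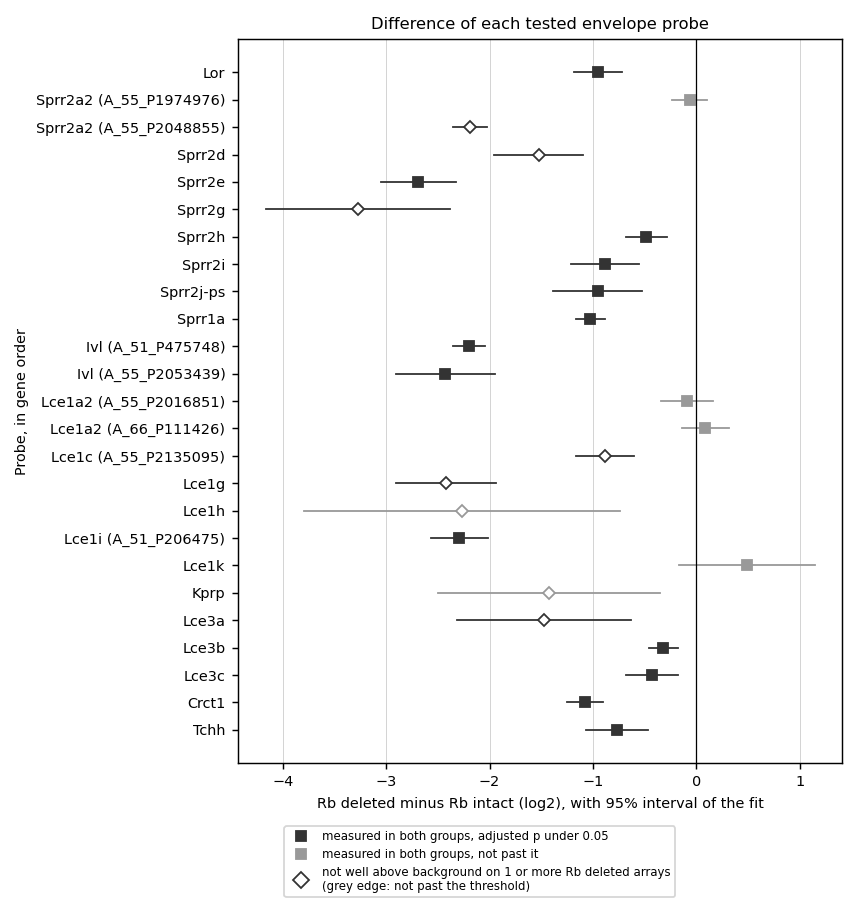
Difference of each tested envelope probe, as Rb deleted minus Rb intact in log2 units, with the 95% interval of the fit, in gene order. Among probes measured on all arrays (squares) the called differences run from -0.32 for Lce3b to -2.69 for Sprr2e, and diamonds are fitted values of probes at background on 1 or more Rb deleted arrays. The intervals of both Lce1a2 probes, Lce1k and the Sprr2a2 probe A_55_P1974976 include 0.

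Only the first slide holds both groups, with Rb deleted 1 as the only Rb deleted array, assumed to vary like the others. Within it 13 of the 17 probes measured on all arrays were lower, with a median of -0.93. Among them 2 were past the threshold, against 0.0451% of all 22164 such probes. These were Ivl probe A_51_P475748, which differed by -2.17 (limma adjusted p = 0.039), and Sprr2e, which differed by -2.97 (0.0411). Sprr2g, Lce1g and Sprr2a2 probe A_55_P2048855 were not above background on Rb deleted 1. Against that array, with the main background subtraction, they have only bounds, at least 4.83-fold, 4.67-fold and 4.63-fold lower. Normexp over all arrays gave -1.72, -1.44 and -1.28 for them, smaller falls than the log2 bounds of 2.27, 2.22 and 2.21. Lor differed by -1.09 (0.0905), Sprr1a by -1.0 (0.0712), Crct1 by -1.06 (0.0813) and Lce1i by -2.29 (0.0521), close to their values over all arrays but not past the threshold. With slide as a block the differences were the same, and 8 of the 17 probes were called lower, against 1.96% of all such probes. The calls of Sprr2h, Sprr2i, Lce1c, Lce3a, Lce3b, Lce3c and Tchh were lost with the block. Without the filter on dim probes 14 of the 46 envelope probes were called lower, against 2.33% of all 39429 probes. Under the normexp background model, differences of several dim probes shrank by over 1.5 times. Beside those given above they came to -0.57 for Sprr2i, -1.02 for Lce1h, -0.75 for Kprp, -0.74 for Lce3a, -0.14 for Lce3b, -0.28 for Lce3c and 0.21 for Lce1k.

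**Figure D5:**
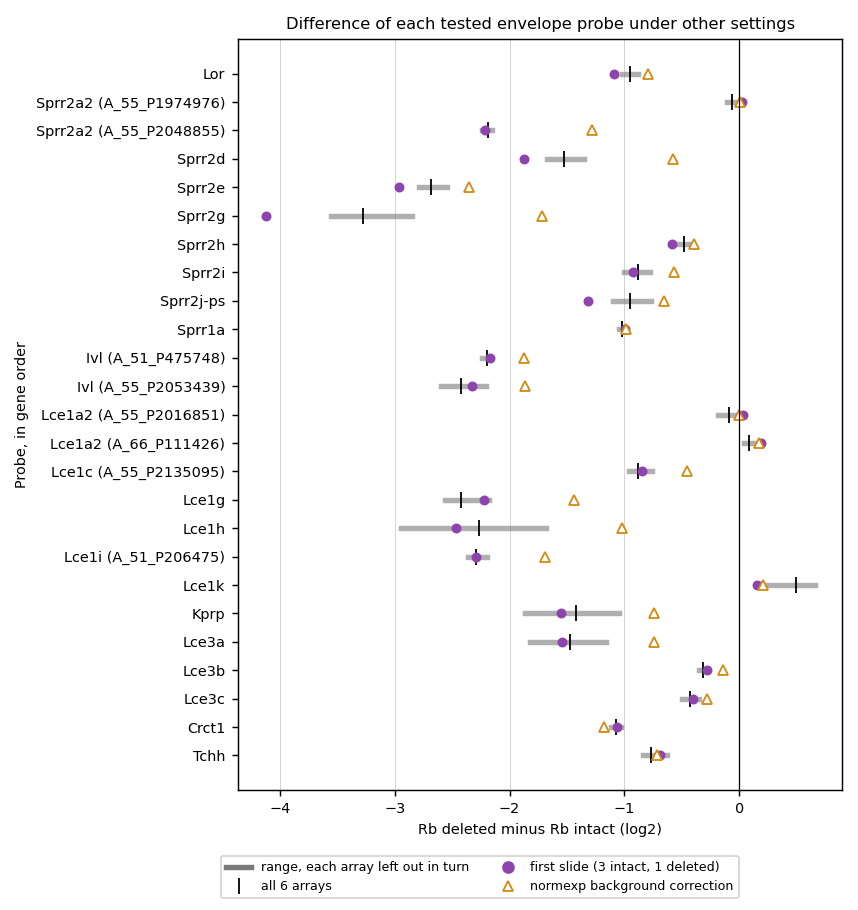
Difference of each tested envelope probe when arrays or the background model change: bars span the range with each array left out in turn, ticks mark all 6 arrays, filled circles the first slide and triangles the normexp background correction. Several dim probes shrink under normexp, such as Lce1g from -2.42 to -1.44, and Ivl probe A_51_P475748 stays between -2.24 and -1.88.

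Genes of cornification that are not members moved in both directions. Genes are represented here by their brightest tested probe, and 9.44% of 13728 genes were called lower and 7.74% higher. Among genes for cross-linking and processing of precursors, 8 of 15 were measured, 3 fell and 1 rose, with a median of -0.02. The transglutaminase gene Tgm1 is in this list and was not called. Cst6, a cystatin that restrains envelope proteases, fell by 1.00 ± 0.08 (limma adjusted p = 0.00144). Serpinb2, a protease inhibitor gene, fell by 0.82 ± 0.08 (0.00209), and Cstb, another cystatin gene, fell by 0.26 ± 0.05 (0.0281). St14, the protease matriptase, rose by 0.74 ± 0.09 (limma adjusted p = 0.00567). Klk5, Klk7, Klk14, Tgm5, Asprv1, Spink5 and Csta1 were at background on every array.

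Of 20 scaffold and junction genes, 8 were measured, 4 fell and none rose (0 higher also at an unadjusted limma p under 0.05), with a median of -0.38. Envoplakin (Evpl), onto which the envelope is first assembled, fell by 0.42 ± 0.08 (limma adjusted p = 0.0212). The desmosome genes Perp and Cdsn fell by 0.65 ± 0.09 (0.00783) and by 0.51 ± 0.08 (0.0115), and suprabasin (Sbsn) fell by 0.34 ± 0.08 (0.0322). Anxa1, the brightest of the list, differed by -0.19 ± 0.07 (limma adjusted p = 0.118). Of 11 lipid barrier genes, 8 were measured and 1 fell, with a median of -0.10. This was the epidermal lipoxygenase gene Aloxe3, which fell by 0.67 ± 0.09 (limma adjusted p = 0.00766). The ceramide genes Ugcg and Cers3 differed by -0.19 ± 0.06 (0.0664) and by 0.30 ± 0.10 (0.091), and Smpd1 by -0.13 ± 0.07 (0.245).

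Keratins of differentiation showed no call in either direction by limma, with 5 of 11 measured, a median of -0.0037 and 0 past an unadjusted p of 0.05. Krt10, the suprabasal keratin of epidermis, stood at -1.62, -1.48 and -1.46 in Rb intact and at -1.59, -1.68 and -1.68 in Rb deleted. Its groups overlapped, and the difference was -0.13 ± 0.07 (limma adjusted p = 0.244). Krt2, Krt80 and Krt16 differed by 0.24 ± 0.15 (0.316), by 0.16 ± 0.15 (0.506) and by -0.07 ± 0.11 (0.716).

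Transcriptional regulators of squamous differentiation moved both ways, with 19 of 25 measured, 5 lower and 4 higher, and a median of -0.09. Ehf, an epithelial ETS factor, fell by 1.65 ± 0.11 (3.14-fold, limma adjusted p = 0.000808). Prdm1, a repressor active in differentiating keratinocytes, rose by 1.14 ± 0.07 (2.21-fold, 0.000633). The AP-1 subunit genes Fos and Jun rose by 0.72 ± 0.06 (0.00163) and by 0.38 ± 0.07 (0.0224). Klf4 and Trp63 differed by -0.04 (limma adjusted p = 0.71) and by -0.26 (0.0575), and Ovol1, Grhl1, Grhl3, Zfp750 and Elf3 were at background on every array. Klf4, Trp63 and Tgm1 were named after their values were seen.

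Some markers of basal prostate cells also fell. Of 13 basal markers, 9 were measured, 5 fell and 1 rose, and their summed linear signal was 31.7 to 37.2 times the 75th percentile in Rb intact and 24.0 to 24.7 times in Rb deleted. Itga6 alone made up 26.8 to 32.5 and 19.3 to 19.8 of these sums, and the other 8 markers summed to 4.70 to 4.98 and 4.64 to 4.82. The fallers were the integrin genes Itga6 and Itgb4, the hemidesmosome genes Dst and Col17a1, and Aqp3. Krt5 was not above background on all arrays of either group and Krt15 was not on any. The part that the number or state of basal cells had in the envelope differences was not tested. Luminal markers gave 1 fall among 8 measured of 14, with sums of 14.2 to 15.5 and 13.2 to 14.5. Epidermal suprabasal markers gave no call in 2 measured of 7, with sums of 0.379 to 0.432 and 0.371 to 0.404. Fibroblast and smooth muscle markers gave 4 falls among 12 measured of 14, with sums of 427 to 449 and 383 to 408. In limma's fit 1 of 4 endothelial markers measured fell (Vwf, above background on 1 Rb deleted array and tested only through Rb intact), and no call was made among 3 leukocyte markers and 1 urothelial marker measured, where none had an unadjusted p under 0.05 either.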

How the data were processed

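Per the file headers, the deposited scanner files hold spot intensity from the authors' run of Agilent Feature Extraction 11.0.1.1, while version 10.7.3.1 stands in the submitters' processing notes. Processed intensity is background-subtracted, with no scaling between arrays. The authors also deposited log2 values, which equalled log2 processed intensity minus a constant per array within 0.01 for 100% of 22164 probes (column medians -0.52 to -0.49); the origin of the constant is not given in the sources used here.

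Here, non-control spots without outlier marks were averaged per probe on the log2 scale, and each array's 75th percentile over its 43020 non-control spots, again without outlier marks, was subtracted. A first fit took that percentile over averaged probes; the other was adopted after its results were seen, and both are compared in the closing section. A probe was kept when every array of 1 group or the other, 3 arrays, had it well above background (23045 of 39429). Names came from matching RefSeq accessions to a GRCm38.p6 gene table (27427 probes). limma 3.58.1 in R 4.3.3 (lmFit, eBayes) was fitted without a block and adjusted by Benjamini-Hochberg over all kept probes. The fit was tested on simulated data. Same-numbered arrays did not deviate together (r from -0.04 to 0.03). With 3 arrays per group this cannot show whether same-numbered cultures were paired, and the labels do not say. Results with a replicate block are given in the closing section.

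The members, gene lists and the rule for named genes (every member with a tested probe in full, and of each list up to 4 genes with the smallest p plus the brightest) were chosen with earlier results of these data known. Some genes that the rule names are left out of the text. Other settings covered scaling, background model, filter, probe choice, variance model, array weights, slide, replicate number and each left-out array. The number of arrays limits the precision.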

Additional observations from a re-analysis of the deposited data

How the results depend on the processing

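No envelope probe was called higher under any setting tried. Counts of all envelope probes called lower include those tested only through Rb intact, which had to be lower, and are no support. Counts of the 17 probes measured on all arrays leave these out. Median scaling, the 75th percentile over averaged probes, and quantile normalization each called 13 of the 17 lower, and no envelope call changed. The percentile over averaged probes, added after the data were seen, gave 1978 lower and 1693 higher over all probes against 2040 and 1574. Without a filter on dim probes 8 of the 17 probes measured on all arrays, 917 lower and 465 higher probes in all, and 8 lower cornification genes were called. Array weights gave 4470 lower and 4614 higher probes and 22 lower cornification genes. With slide as a block 12 envelope probes, 8 of the 17, 511 lower and 177 higher probes, and 5 lower and 2 higher cornification genes were called; within the first slide these counts were 5, 2, 22, 3, 0 and 0. The replicate block gave 18 envelope probes, 12 of the 17, 1183 lower and 702 higher probes and 3 higher cornification genes. Under it Lce3a and Lce3b lost their call and Lce1h passed. Leaving out each array gave 15 to 18 envelope probes called lower, 8 to 12 of the 17, 915 to 3563 lower and 411 to 3376 higher probes, and 9 to 20 lower and 3 to 7 higher cornification genes, with both highest counts of all probes without Rb intact 1. The Sprr2a2 probe A_55_P1974976 changed sign to 0.024 with slide as a block or within that slide and to 0.0088 under normexp, and Lce1a2 probe A_55_P2016851 to 0.036 and 0.0022; the causes were not tested. Under normexp 10 of the 17 probes measured on all arrays were called lower. Sprr2h, Lce3b and Lce3c lost their calls under it, and Lce1h, tested only through Rb intact, passed (limma adjusted p = 0.022). Lce1h passed also with 1 probe per gene (0.0496) and with the intensity trend (0.0475), where Lce3b and Lce3c lost theirs. Depth of signal limits the dim probes: a bound replaces the fold of Sprr2g and Sprr2d, and 15 probes gave no signal above background.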
